A study of Homo sapiens with 2 samples.

Results

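The collagen genes of MKN74 and MKN45, both established human gastric cancer (GC) cell lines, were followed through knockdown of SET7/9, the histone methyltransferase encoded by SETD7. The members were all gene probes of the array whose gene name was COL, a chain number, A and a further number. This rule found 43 genes and 65 probes among 25940 gene names and 34127 probes, of which 26 genes had 1 probe, 12 had 2 and 5 had 3. RNA was taken 48 hrs after electroporation with 50 nM SET7/9 siRNA or negative control siRNA. Each line had 1 two-colour array, on which Cy5 (red) marked the SET7/9 siRNA sample and Cy3 (green) the negative control siRNA sample, without a dye swap. More than 1 SET7/9 siRNA was used in the study, and the sources used here do not give the one that was put on the arrays. There were no replicate arrays, so the number of arrays limits the precision of every value and no p-value is given within a line.

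Collagens are extracellular proteins whose chains wind into a triple helix, in which glycine recurs at regular intervals because no other residue is small enough for the inside of the helix. Fibrillar collagens build the fibres of connective tissue, collagen IV builds the network of basement membranes, fibril-associated collagens coat the fibres, and transmembrane collagens sit in the cell surface. In a stomach most interstitial collagen is made by fibroblasts, while epithelial cells contribute mainly to the basement membrane beneath them.

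SETD7 was lower in both lines at the probe on chromosome 4 from 140427692 to 140427751 on GRCh37, the build of all probe positions here, with log2 ratios of -2.03 (MKN74) and -1.95 (MKN45). Its other probe, starting at 140453844, gave 0.24 and -0.23. A channel counts as detected below where Feature Extraction, the scanner software, marked it well above background on at least 50% of a probe's spots, and probes detected in neither channel of an array were left out of its ratios. In Cy3, 54.7% of all probes were detected in MKN74 and 59.7% in MKN45. A log2 ratio is Cy5 over Cy3, and its error is that of the scanner software's error model, which covers the array and not the spread between cultures.

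The repeat of glycine could be read from the probes themselves. A glycine codon is GGN, and a run of at least 4 such triplets spaced 9 bases apart, on the probe's own strand, was held by 4 of the 65 collagen probes (6.15%) and by 31 of the 34062 other probes (0.0910%). The probes below show this signature of the triple helix for 3 fibril-associated collagens that were detected, with the glycine codons in capitals. COL9A1 lies at chr6:70926717-70926776 on the minus strand, COL16A1 at chr1:32148536-32148595 on the minus strand and COL20A1 at chr20:61960951-61961010 on the plus strand.
COL9A1: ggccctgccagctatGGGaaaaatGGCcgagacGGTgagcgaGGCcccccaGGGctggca
COL16A1: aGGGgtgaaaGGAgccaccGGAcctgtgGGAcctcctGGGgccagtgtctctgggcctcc
COL20A1: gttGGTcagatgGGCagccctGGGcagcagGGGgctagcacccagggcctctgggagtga
The fourth probe with such a run belongs to COL14A1. The probes with the highest and the lowest log2 ratio among those measured in both channels, COL13A1 at chr10:71718811-71718870 on the plus strand and COL24A1 at chr1:86195355-86195414 on the minus strand, begin with the following 30 bases, which hold no such run.
COL13A1: gaggtccatgatatttgctaagctaggtgt
COL24A1: aaattattataggccagctacatctagtag

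In cells with negative control siRNA, 17 of the 43 collagen genes were detected in MKN74 and 22 in MKN45. By probe, 19 of 65 (29.2%) and 29 of 65 (44.6%) were detected, below the shares of all probes given above. Detection in Cy3 covered both lines for 16 genes, MKN45 only for 6 and MKN74 only for 1. All 6 of the former were detected in Cy5 of MKN74, and in Cy5 the order of the lines turned, with 24 genes in MKN74 and 23 in MKN45. A further 2 were detected only in Cy5, and 18 in no channel of either array. A gene that was not detected may still be transcribed below the background of the array. In bulk RNA, fewer cells with a transcript and less of it per cell cannot be told apart.

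**Figure D1:**
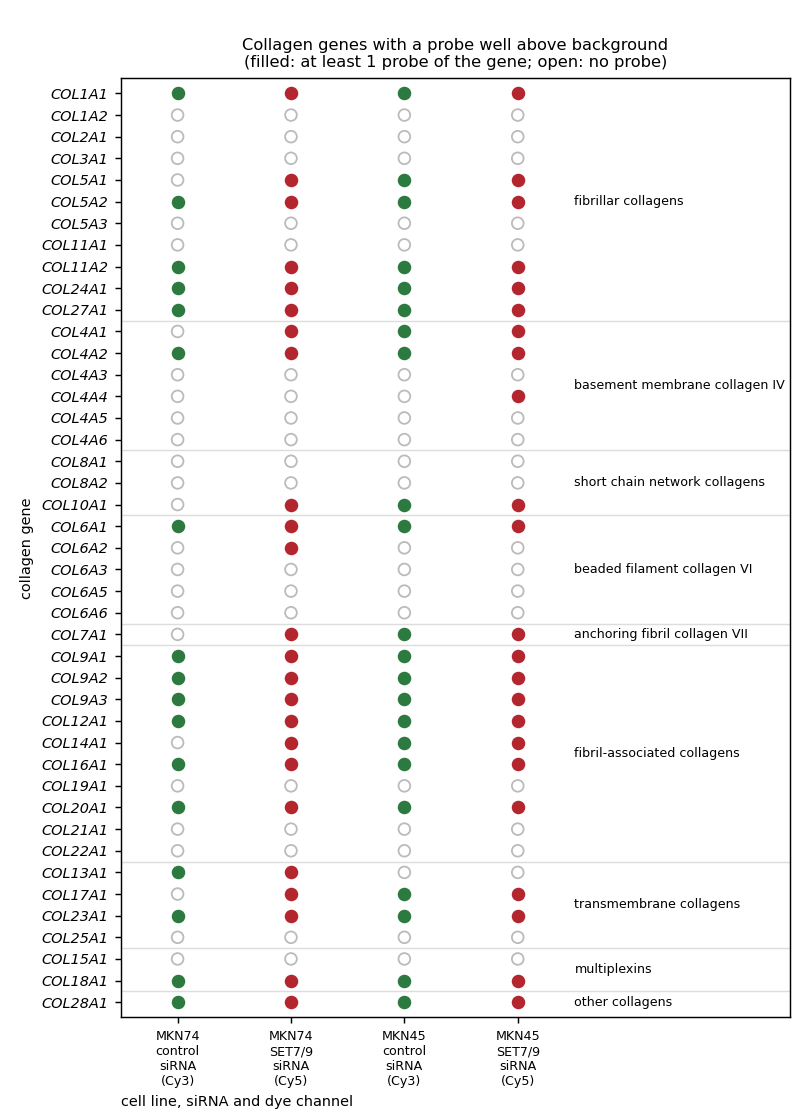
Detection of the 43 collagen genes (rows, by class) in the 4 channels (columns, cell line with siRNA and dye). A filled circle marks a gene with at least 1 probe well above background, and 18 rows have open circles only.

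Of the fibrillar collagens, COL1A1, which encodes the main chain of type I collagen, was detected in both lines, but its partner chain COL1A2 was detected in no channel although its probe was printed on 10 spots. COL5A2, COL11A2, COL24A1 and COL27A1 were detected in Cy3 of both lines and COL5A1, whose product starts type I fibrils, in Cy3 of MKN45 only. COL2A1, the collagen of cartilage, COL3A1, the collagen of extensible tissue, COL5A3 and COL11A1 were not detected. Thus 5 of 11 fibrillar genes were detected in MKN74 and 6 of 11 in MKN45.

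Of the 6 collagen IV genes, those detected in control cells were the ubiquitous pair, COL4A2 in both lines and COL4A1 in MKN45. COL4A3, COL4A5 and COL4A6, chains of more specialised basement membranes, were detected in no channel, and COL4A4 in Cy5 of MKN45 alone. COL7A1, which forms the fibrils that anchor an epithelium to the tissue beneath, was detected in Cy3 of MKN45 only. Of collagen VI, COL6A1 was detected in both lines. COL6A2 was detected in Cy5 of MKN74 alone, and COL6A3, COL6A5 and COL6A6 in no channel. Of the short chain network collagens, COL10A1 was detected in Cy3 of MKN45 only and COL8A1 and COL8A2 in no channel.

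Of the 10 fibril-associated collagen genes, 6 were detected in MKN74 and 7 in MKN45. All 3 chains of collagen IX, COL9A1, COL9A2 and COL9A3, a collagen best known from cartilage, were among them in both lines, with COL12A1, COL16A1 and COL20A1. COL14A1 was detected in Cy3 of MKN45 only, and COL19A1, COL21A1 and COL22A1 in no channel. Of the transmembrane collagens, COL23A1 was detected in both lines, COL17A1, a protein of the hemidesmosome, in MKN45, and COL13A1, which lies at cell adhesion sites, in MKN74. COL25A1 was not detected. COL18A1, the basement membrane proteoglycan from which endostatin is cut, was detected in both lines, its relative COL15A1 in no channel, and COL28A1 in both lines, though at different probes.

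The labels of the lines were set against markers of both cell types. All 8 epithelial markers (EPCAM, CDH1, KRT8, KRT18, KRT19, CLDN4, CLDN7 and ELF3) were detected in Cy3 of both lines. Of 8 fibroblast markers, FBLN1 was detected in MKN74, and FBLN1 and LUM in MKN45. DCN, PDGFRA, PDGFRB, THY1, FAP and POSTN were detected in Cy3 of neither line.

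Probes of the same collagen gene often differed in detection. Of the 17 collagen genes with several probes, 8 in MKN74 and 7 in MKN45 had some probes detected in Cy3 and others not. That is 47.1% and 41.2%, where all genes with several probes gave 27.0% and 26.4%. Collagen probes were also detected less often in Cy3 than all probes (29.2% against 54.7% in MKN74, 44.6% against 59.7% in MKN45). The part of this, and of the number of probes per gene, in the mixed detection was not tested. COL23A1 was the clearest case of mixed detection in both lines. Its probe from 177989030 to 177989089 on chromosome 5 read a Cy3 intensity of 902 in MKN74 and 1459 in MKN45, while its probe from 177664805 to 177664864 was not well above background in any channel. The array annotation names a RefSeq transcript for the undetected probe and an Ensembl transcript for the bright one. Whether either probe also reaches other transcripts of COL23A1 is not given. Where 2 or more probes of a gene were measured in both channels, their log2 ratios lay apart by a median of 0.34 in MKN74 (2 genes) and 0.28 in MKN45 (5 genes), against 0.16 and 0.17 over all such genes.

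After SET7/9 knockdown, few collagen probes passed the 1.5-fold cutoff of the study (0.58 on the log2 scale). In MKN74, 2 of 30 kept collagen probes were lower (1.76% of all kept probes) and 4 were higher (3.78% of all). In MKN45, 0 of 31 were lower (1.97% of all) and 1 was higher (4.81% of all). Of 26 collagen probes kept on both arrays, 0 were lower in both lines (0.373% of all) and 0 were higher in both (0.75% of all). These counts of 0 to 4 probes are too small to be read as a share of the collagens. With both channels detected, 2 of 19 were lower (1.45% of all) and 1 higher (0.64% of all) in MKN74, and 0 of 29 were lower (1.62% of all) and 0 higher (0.814% of all) in MKN45. The ratio was no larger than its own error for 19 of the 30 probes in MKN74 and 16 of the 31 in MKN45.

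**Figure D2:**
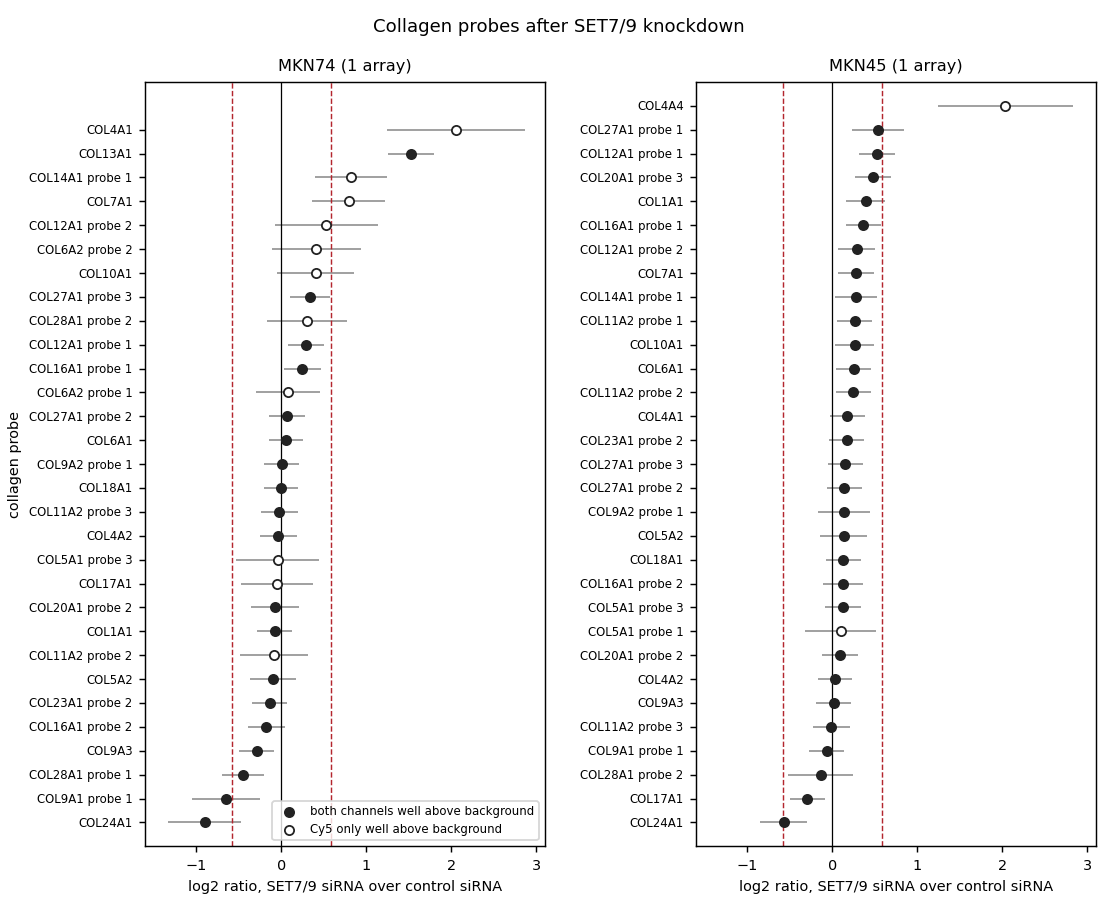
Log2 ratios (SET7/9 siRNA over control siRNA, x axis) of the 30 collagen probes kept in MKN74 and the 31 kept in MKN45 (rows, sorted by ratio; probes of a gene are numbered by position on GRCh37). Bars are the scanner software's error of a single array, dashed lines mark the 1.5-fold cutoff, and COL13A1 in MKN74 is the only filled point above it.

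COL13A1 had the highest ratio among collagen probes measured in both channels, and its probe was printed on 10 spots of each array. In MKN74, the processed intensity (background-subtracted and dye-normalized, in arbitrary units) ran from 32.9 to 43.1 in Cy3 with a median of 37.6, and from 101 to 117 in Cy5 with a median of 109. The ranges of the 2 channels did not overlap, and all 10 spots were well above background in both. The log2 ratio was 1.53 ± 0.14 (SD, n = 10 spots), ranging from 1.36 to 1.78, which is 2.88-fold higher. Its error from the scanner software's error model was 0.27. These spots share 1 pair of RNA samples, so the SD covers the array and not the cells. The MKN45 array read 3.32 to 9.06 for Cy3 and 2.43 to 10.2 for Cy5, and 0 of its 10 spots were well above background in either channel. The ratio of COL13A1 in MKN45 therefore has no level behind it, and a difference of response between the lines was not tested. After normexp background correction (offset 50) and loess, COL13A1 stood at 0.78 in MKN74, still past the cutoff.

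**Figure D3:**
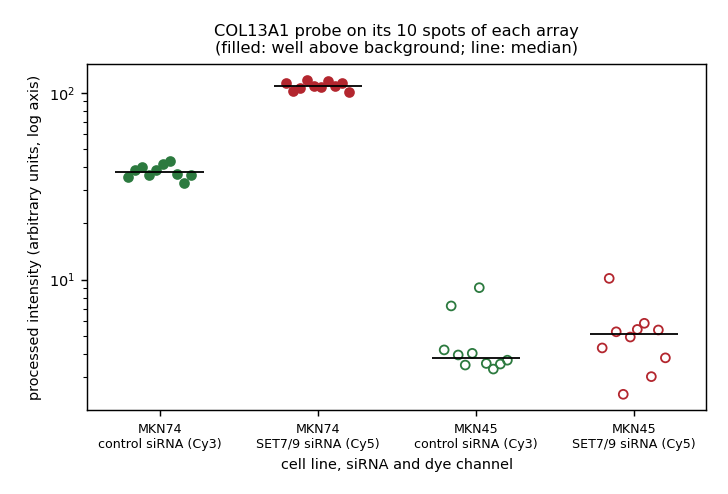
Processed intensity (log axis, arbitrary units) of the COL13A1 probe on its 10 spots in each of 4 channels, with a line at the median. In MKN74 the Cy3 spots lie at 32.9 to 43.1 and the Cy5 spots at 101 to 117, and open circles in MKN45 mark spots not well above background.

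COL24A1, a minor fibrillar collagen known from developing bone, was the lowest collagen probe of both lines. Its MKN74 intensities were 24.9 (Cy3) and 13.3 (Cy5), and those in MKN45 were 43.5 and 29.2. Cy5 was the dimmer channel in both, and all 4 readings were detected. The resulting log2 ratios were -0.90 (error 0.43) in MKN74 and -0.57 (error 0.28) in MKN45, just short of the cutoff of -0.58. Centred on each array's median, it passed in MKN45 as well. After normexp and loess the ratios were -0.22 and -0.20, on the same side of 0 and short of the cutoff in both lines. All 4 intensities lay below the offset of 50, which pulls such ratios towards 0.

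COL9A1, whose glycine codons are shown above, was the other collagen probe past the cutoff with a lower ratio. The MKN74 intensities were 21.8 (Cy3) and 13.9 (Cy5), a log2 ratio of -0.65 (error 0.40). The probe was brighter in MKN45, at 182 (Cy3) and 174 (Cy5), where the ratio was -0.06 (error 0.21). After normexp and loess the ratio in MKN74 was -0.21, short of the cutoff. Both MKN74 intensities lay below the offset of 50, which pulls such ratios towards 0, so that setting is no check of this call. The second COL9A1 probe, starting at 70989586, was detected in no channel. COL9A2 and COL9A3, which share the collagen IX trimer with it, gave 0.01 and -0.29 in MKN74 and 0.14 and 0.01 in MKN45.

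The other probes past the cutoff were detected in Cy5 alone. COL4A1 in MKN74 read 3.99 in Cy3 and 16.6 in Cy5, a log2 ratio of 2.05 with an error of 0.81. COL4A4 in MKN45 read 3.66 and 15.04, a ratio of 2.04 with an error of 0.79. For neither did the Cy5 signal exceed the lowest Cy3 signal that was well above background on the same array, after scaling of both channels, so that no bound above 1-fold could be given. COL14A1 in MKN74 read 12.4 in Cy3 and 21.9 in Cy5 (log2 ratio 0.82), the latter 1.25-fold above that lowest Cy3 signal after scaling. COL7A1 in MKN74 read 12.2 and 21.2 (log2 ratio 0.79), the latter 1.21-fold above it. These are not firm bounds. Some Cy3 signals above that lowest one were not detected, such as COL17A1 at 4.75 on the log2 scale. Without a dye swap, a dye bias could also move these bounds. After normexp and loess the log2 ratios were 0.20 (COL4A1), 0.17 (COL14A1) and 0.08 (COL7A1) in MKN74 and 0.18 (COL4A4) in MKN45, all short of the cutoff. The offset of 50 was larger than each of these intensities and pulls such ratios towards 0. Signals this dim could hardly pass the cutoff in that setting, so it is no check of these ratios. In MKN45, where COL4A1, COL14A1 and COL7A1 were detected in both channels, their log2 ratios were 0.18, 0.28 and 0.28, short of the cutoff.

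Detection in Cy5 alone was common among collagens in MKN74. It held for 11 of the 65 probes (16.9%), against 5.93% of all probes on that array, and for 2 of 65 (3.08%) in MKN45, against 7.19% of all. The lowest log2 signal that was well above background was 4.46 (Cy3) and 3.68 (Cy5) for MKN74, and 3.59 and 2.76 for MKN45, so Cy5 was detected at a lower scaled signal on both arrays. The part of this in the Cy5 detections was not tested.

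Among collagens measured in both channels of both lines and short of the cutoff, COL12A1, which links fibrils to the surrounding matrix, had the highest mean log2 ratio (0.41). Its probe from 75794289 to 75794348 on chromosome 6 read 121 (Cy3) and 149 (Cy5) in MKN74, and 749 and 1079 in MKN45, so that Cy5 was the brighter channel in both. This gave 0.30 (error 0.21) for MKN74 and 0.53 (error 0.21) for MKN45 as log2 ratios. Its second probe, starting at 75822928, gave 0.53 (error 0.60) with Cy5 alone detected in MKN74, and 0.29 (error 0.22) in MKN45. COL16A1 was similar at its probe starting at 32118175, with 0.25 and 0.36 (errors 0.22 and 0.21), but gave -0.18 and 0.13 at the probe starting at 32148536. After normexp and loess the MKN74 ratio was 0.10 at both COL16A1 probes, so that they no longer differed in sign.

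The remaining collagens measured in all 4 channels lay short of the cutoff. COL18A1 gave -0.00 in MKN74 and 0.13 in MKN45 (errors 0.20), COL4A2 -0.03 and 0.03 (errors 0.22 and 0.20), and COL6A1 0.06 and 0.25 (errors 0.20 and 0.21). COL23A1 gave -0.13 and 0.17 (errors 0.20). Among fibrillar collagens, COL1A1 gave -0.08 (error 0.21) and 0.39 (error 0.23), and COL5A2 -0.09 and 0.13 (errors 0.27), where the former turned to 0.18 after normexp and loess. COL11A2 gave -0.02 and -0.01 at its probe starting at 33154232, COL27A1 0.07 and 0.14 at the probe starting at 117072895 and 0.33 and 0.15 at that starting at 117073738, and COL20A1 -0.07 and 0.09. For 7 of these 10 probes the ratio was within its error in both lines. Of the probes measured in both channels of MKN45 only, COL27A1 at the probe starting at 116980054 gave 0.54 (error 0.31), COL20A1 at that starting at 61962227 gave 0.48 (error 0.21), and COL17A1 gave -0.29 (error 0.21). Measured in both channels of MKN74 only, COL28A1 at the probe starting at 7398244 gave -0.45 (error 0.25).

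Over all kept collagen probes, the median log2 ratio was 0.0015 in MKN74, where all kept probes had 0.0056, and 0.15 in MKN45, where all had 0.014. In MKN45, 26 of 31 collagen probes (83.9%) had a ratio above 0, against 52.9% of all kept probes, and in MKN74 15 of 30 (50.0%) had one, against 51.2%. With both channels detected the share in MKN45 was 24 of 29 (82.8%), against 49.7% of all. In MKN74 it was then 7 of 19 (36.8%), against 48.4% of all, with a median of -0.03. The other 11 of the 30 probes in MKN74 were kept through Cy5 alone. These are descriptions of 1 array each, with no test.

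Taking both arrays, though of different lines, as 2 replicates of the knockdown and testing the mean log2 ratio against 0 in limma, 0 of 26 collagen probes passed a Benjamini-Hochberg adjusted p of 0.05, as did 0 of all 19595 probes (0% called), while 7 of the 26 and 2569 of the 19595 had an unadjusted p under 0.05. The lowest was COL24A1, with a mean of -0.74 (SE 0.11) and an adjusted p of 0.355 in limma. It was lower in 2 of 2 arrays. With normexp and loess 1708 probes were called (8.72%), among them 1 collagen, COL12A1 at the probe starting at 75794289, with a mean of 0.43 (SE 0.07) and an adjusted p of 0.0057 in limma. The second COL12A1 probe, with a mean of 0.04 and an adjusted p of 0.70, was not called there. With both channels detected on both arrays, 2 of 17362 probes were called (0.0115%) and 0 of 17 collagens, 4 of which had an unadjusted p under 0.05, as did 2867 of all 17362 (16.5%).

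The same probe could also be compared between the control cells of the 2 lines, in Cy3 after scaling of all channels to a common distribution (Aquantile). Each line has 1 control sample, so the differences have no test. Of 17 collagen probes detected in Cy3 of both lines, 9 were at least 1.5-fold higher in MKN45 (23.9% of all such probes) and 6 were at least 1.5-fold lower (32.5% of all). The median difference, MKN45 minus MKN74, was 0.75 on the log2 scale, and that of all 17414 probes detected in both was -0.13. Detection in MKN45 alone held for 12 of the 65 collagen probes (18.5%, against 8.68% of all probes) and detection in MKN74 alone for 2 (3.08%, against 3.62%). This holds for Cy3, while in Cy5 30 collagen probes (46.2%) were detected in MKN74 and 31 (47.7%) in MKN45. The lowest scaled Cy3 log2 signal that was well above background was 4.46 in MKN74 and 3.59 in MKN45. Dimmer signals could thus count as detected in MKN45, and the part of this in the shares was not tested.

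**Figure D4:**
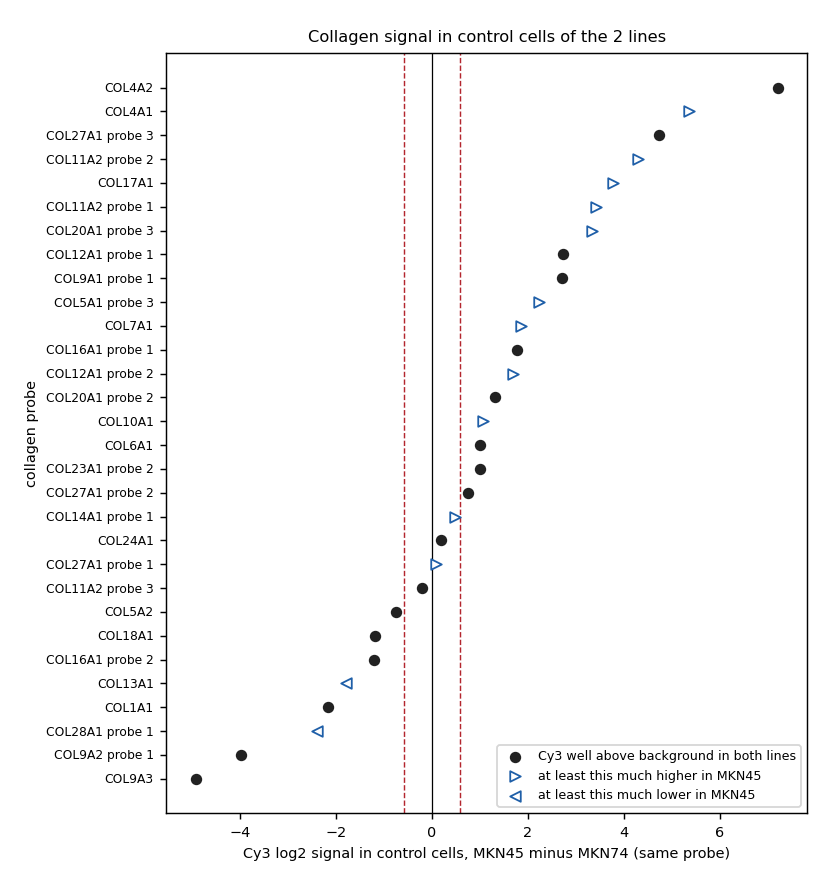
Difference in Cy3 log2 signal of the same probe between control cells, MKN45 minus MKN74 (x axis), for 30 collagen probes (rows, numbered by position), with dashed lines at 1.5-fold. Triangles are lower bounds for probes detected in 1 line only, and COL4A2 at 7.21 and COL9A3 at -4.93 are the ends of the range.

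The largest difference was that of the basement membrane pair, higher in MKN45. The Cy3 log2 signal of COL4A2 was 6.41 in MKN74 and 13.63 in MKN45, a 149-fold difference (7.21 on the log2 scale, and 6.45 after normexp, loess and Aquantile). COL4A1 was not well above background in MKN74 and read 9.83 in MKN45, at least 41.3-fold higher. On the log2 scale, normexp, loess and Aquantile gave bounds of 3.58 for COL4A1, 2.11 for COL17A1 and 0.79 for COL7A1, lower than those printed here but in the same direction. In cells with SET7/9 siRNA (Cy5), the same differences were 155-fold and 47.1-fold, so both RNA samples of a line gave the same order. Differences of the same direction were seen for COL17A1 (at least 13.6-fold), COL7A1 (at least 3.61-fold) and COL12A1 (6.60-fold at the probe starting at 75794289 and at least 3.21-fold at the other). COL6A1 was 2.01-fold higher in MKN45, and COL23A1 went from a Cy3 log2 signal of 9.67 in MKN74 to 10.67 in MKN45.

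The chains of collagen IX differed between the lines in both directions. COL9A3 had a Cy3 log2 signal of 13.98 in MKN74 and 9.04 in MKN45, a 30.6-fold lower level in MKN45. COL9A2 went from 8.22 to 4.23, which is 15.9-fold lower. COL9A1 went the other way, from 4.79 to 7.50, and was 6.57-fold higher in MKN45. After normexp, loess and Aquantile the directions were kept but the log2 differences of COL9A2 and COL9A1 shrank from -3.99 to -2.15 and from 2.72 to 1.53. COL18A1 was 2.27-fold and COL1A1 4.51-fold lower in MKN45, and the log2 difference of COL1A1 went from -2.17 to -1.17 in that setting. COL13A1 was at least 3.49-fold lower in Cy3 and at least 17.9-fold lower in Cy5 of MKN45, and COL28A1 at least 5.24-fold lower in Cy3 at its probe starting at 7398244. The other COL28A1 probe, starting at 7471139, was detected in Cy3 of MKN45 alone, gave no bound above 1-fold and is not drawn in the plot of control levels.

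The difference between the lines depended on the probe for COL27A1, COL20A1 and COL11A2 in size and for COL16A1 in direction. COL27A1 was 26.6-fold higher in MKN45 at the probe starting at 117073738 but 1.68-fold higher at that starting at 117072895. COL11A2 was at least 10.8-fold and at least 19.7-fold higher in MKN45 at the probes starting at 33130469 and 33130677, and differed by 0.22 on the log2 scale (lower in MKN45) at that starting at 33154232, a sign that flipped to 0.23 higher after scaling by the 75th percentile. COL16A1 was 3.44-fold higher at the probe starting at 32118175 and 2.33-fold lower at the other. COL20A1 was 2.48-fold higher at one probe and at least 10.1-fold higher at another. A pair of further collagens depended on the scaling. COL5A2 was 1.68-fold lower in MKN45 as scaled here, and by 0.10 on the log2 scale after the 75th percentile. COL24A1 lay within the 1.5-fold range at 1.13-fold higher, but was higher by 0.99 on the log2 scale after the 75th percentile.

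COL4A1 and COL4A2 start head to head, and the bases between their starts are shown because both genes were higher in MKN45. They span chr13:110307158-110307283 on GRCh38.p14 (RefSeq, plus strand, 126 bases), with COL4A1 leaving to the left and COL4A2 to the right. COL4A4 and COL4A3, which were detected in Cy3 of neither line, start head to head around chr2:227164489-227164623 (135 bases), with COL4A4 leaving to the left. Matches of CCAAT and GGGCGG on either strand are in capitals.
COL4A1 and COL4A2: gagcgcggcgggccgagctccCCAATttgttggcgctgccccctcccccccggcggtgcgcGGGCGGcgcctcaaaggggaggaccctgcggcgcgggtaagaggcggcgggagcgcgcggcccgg
COL4A4 and COL4A3: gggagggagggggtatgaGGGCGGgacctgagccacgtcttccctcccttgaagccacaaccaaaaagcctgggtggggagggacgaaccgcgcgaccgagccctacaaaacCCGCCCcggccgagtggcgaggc
The first region holds 1 CCAAT and 1 GGGCGG, which 21.1% and 34.6% of the 126 bases before the start of 35116 RefSeq promoters also hold. The second holds 0 CCAAT, which 22.1% of windows of 135 bases hold, and 2 GGGCGG, where 35.5% of windows hold at least 1 and 16.9% at least 2. The letters are a description of these windows and say nothing of binding.

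Genes that make, export, process or bind collagens were taken from 5 fixed lists of 44 genes and 61 probes in all. In MKN74, 0 of 40 kept probes were lower (1.76% of all kept probes) and 1 was higher (3.78% of all) past the cutoff, and in MKN45 1 of 47 was lower (1.97% of all) and 4 were higher (4.81% of all). Their ratios had medians of -0.02 (MKN74) and 0.04 (MKN45) on the log2 scale. With both channels detected, the only call was GLT25D2, a collagen galactosyltransferase, in MKN45, where the log2 ratio was -0.64 with an error of 0.24. It was not detected in MKN74. The higher calls, each with Cy5 alone detected, were BMP1 in MKN74 and ITGA11, MRC2, LOXL2 and LOXL3 in MKN45.

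**Figure D5:**
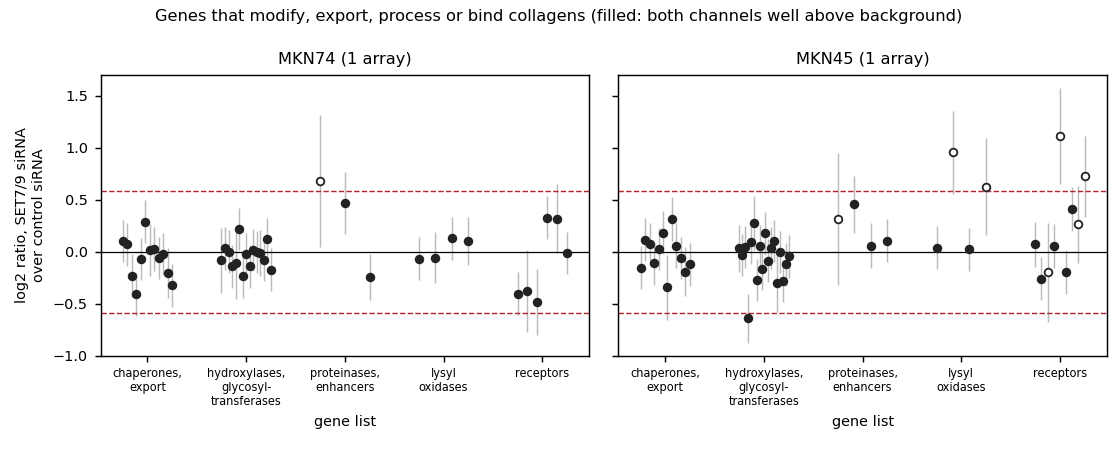
Log2 ratios (y axis, SET7/9 siRNA over control siRNA) of the kept probes of 5 gene lists (x axis), with the scanner software's error as bars and dashed lines at 1.5-fold. Filled points were detected in both channels, and 1 of them, GLT25D2 at -0.64 in MKN45, is past the cutoff.

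Most genes of the machinery that folds collagen were detected. In Cy3 of both lines all 7 genes for chaperones and export were detected, among them SERPINH1, the collagen chaperone, with log2 ratios of -0.32 in MKN74 and -0.12 in MKN45. Of 14 hydroxylases, glycosyltransferases and their partners, 10 were detected in MKN74 and 13 in MKN45, PLOD2 and LEPREL1 in MKN45 only and P4HA3 in neither. P4HB, a subunit of prolyl hydroxylase, gave 0.02 and -0.00 in MKN74 and 0.04 and 0.10 in MKN45 at its 2 probes. Of 8 proteinases and enhancers that trim procollagen, 2 and 3 were detected, and ADAMTS2, ADAMTS3 and ADAMTS14 were detected in Cy3 of neither line. Of 5 lysyl oxidases, which crosslink fibrils, 3 and 2 were detected, without LOX. Of 10 collagen receptors, 6 and 4 were detected. DDR1, the discoidin domain receptor of epithelial cells, gave -0.40 in MKN74 and -0.26 in MKN45 (errors 0.21) at its probe starting at 30867378. Its probe starting at 30857028 gave 0.07 (error 0.21) in MKN45 and was detected in neither channel of MKN74. DDR2 was detected in neither line.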

How the data were processed

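The authors deposited, for each array, scanner output of Agilent Feature Extraction (version 10.7.3.1 per the file headers). As deposited, it gives each spot's intensity in both channels (linear scale), the log10 ratio of red to green, an error for that ratio and the error model's p-value. They also deposited a table of log2 ratios, of which 99.6% (MKN74) and 99.4% (MKN45) lay within 0.01 of the scanner's. The software had subtracted background, set surrogate values for dim signals and normalized the dyes. The log10 ratio was converted to log2. Control spots were left out, as were outlier spots of gene probes (549 in MKN74 and 534 in MKN45), and spots of a probe were averaged. Signals were scaled between arrays by Aquantile in limma 3.58.1 (R 4.3.3). For a bound, the dim channel took whichever was higher, its measured signal or the minimum over probes well above background. Some undetected signals lay above that minimum, so the bounds are approximate. Limma's test used Benjamini-Hochberg adjustment. It was tested on simulated data in which all probes had the same spread, which does not cover ratios of unequal spread. RefSeq (GRCh38.p14) matched 55 of 65 collagen probes by accession, all to the same symbol, and 10 had no match.

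Groups came from the sample labels. Members, lists and tests were chosen with earlier results of these data known. Fully described are collagen probes past the cutoff with both channels detected, all probes of such genes, and probes detected in all 4 channels. Alternatives covered background correction, centring, filters, cutoff, scaling and the source of values.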

Additional observations from a re-analysis of the deposited data

How the results depend on the processing

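With 1 array per line, counts near the cutoff depended on the processing. After normexp and loess, collagen probes past 1.5-fold numbered 0 lower and 1 higher in MKN74 and 0 higher in MKN45, the pathway lists had 0 higher in each line and 0 lower in MKN45, and limma called 1 collagen. Median centring gave 1 lower in MKN45 and 1 lower in both lines (COL24A1). The deposited table, and the filter on both channels, each gave 1 higher in MKN74 and 0 in MKN45; that filter left 0 higher pathway probes in each line. With no filter, 4 were lower and 7 higher in MKN74, 5 lower and 2 higher in MKN45, and 1 lower and 1 higher in both. A 2-fold cutoff left 0 lower and 2 higher in MKN74. Requiring an error model p under 0.01 left 0 lower and 1 higher in MKN74 and 0 higher in MKN45. Requiring every probe of a gene, 9 collagen genes were detected in MKN74 and 15 in MKN45. In Cy5, 16 of 26 collagen probes were at least 1.5-fold higher in MKN45 than in MKN74 (24.2% of all), and collagen genes detected in MKN74 numbered 24, against 23 in MKN45. No value changed sign among the 3 calls measured in both channels, whereas some ratios short of the cutoff did, as given for COL16A1 and COL5A2. Of the 3 calls, 1 stayed past the cutoff with normexp and loess and 3 under the deposited table, median centring or kept outlier spots. By construction, the normexp offset of 50 pulls the ratios of dim signals towards 0. A dim call lost in that setting is therefore no test of that call. How much of these shifts the offset makes up was not tested. The median over all probes detected in both lines, MKN45 minus MKN74, was -0.13 by Aquantile, 0.03 by the 75th percentile and -0.08 by normexp, loess and Aquantile. Each log2 ratio pairs the RNA samples of 1 array, so the limma test over both arrays is the paired one, and no further block could be fitted. Leaving out an array leaves no replicate. Intensities near background limited most collagens.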
